A study of Mus musculus with 7 samples.

Results

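The genes described are 36 that encode the enzymes of cholesterol and fatty acid synthesis together with the regulators that set their transcription. They were taken by symbol from a table of 50600 gene entries measured by bulk RNA sequencing and from a single-cell table of 15536 genes. All 36 were found in both tables, and all 36 passed the filter on low counts that left 18088 genes in the bulk test. They fall into 8 roles: supply of acetyl-CoA and NADPH (Acly, Acss2, Me1), the mevalonate arm (Acat2, Hmgcs1, Mvk, Pmvk, Mvd, Idi1, Fdps), squalene to lanosterol (Fdft1, Sqle, Lss), lanosterol to cholesterol (Cyp51, Tm7sf2, Msmo1, Nsdhl, Hsd17b7, Ebp, Sc5d, Dhcr7), regulators and a sterol carrier (Srebf1, Srebf2, Insig1, Scap, Stard4), fatty acid chain synthesis (Acaca, Fasn, Thrsp), desaturases (Scd1, Scd2, Fads1, Fads2) and elongases (Elovl1, Elovl5, Elovl6). The label holds for what these genes encode, as all are textbook members of the pathways or their control.

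Neural stem and progenitor cells (NSPCs) were grown from the dentate gyrus (DG), the hippocampal layer that adds new granule neurons throughout life, of C57Bl6J mice aged 6 to 8 weeks. The 4 bulk culture libraries came from separate primary cultures, 2 female (F1, F2) and 2 male (M1, M2), at passage 6 to 15, kept on poly-d-lysine and laminin in neurobasal A with B27 without vitamin A, glutaMAX, and EGF and bFGF at 20 ng/ml each. The 2 whole DG libraries came from 1 female (F1) and 1 male (M2) C57Bl6J mouse aged 7 to 9 weeks. The single-cell library mixed equal numbers of cells from 3 cultures, 2 female and 1 male, from mice aged 6 to 9 weeks, and the cells of different cultures carry no label. No group carries a mutation or a transgene, and no drug was given. Growth in culture, passage and the loss of neighbouring cell types come together in every culture library and cannot be told apart.

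Cholesterol is built from acetyl-CoA through mevalonate, isoprenoid pyrophosphates, squalene and lanosterol. Fatty acids start from the same acetyl-CoA, which acetyl-CoA carboxylase turns into malonyl-CoA for fatty acid synthase, after which elongases lengthen the chain and desaturases add double bonds. Both branches are transcribed under the sterol regulatory element-binding proteins encoded by Srebf1 and Srebf2, which Scap carries from the endoplasmic reticulum to the Golgi for cleavage when sterols are low, and which Insig proteins hold back when sterols are plentiful. The brain makes its own cholesterol, since lipoproteins of the blood do not cross the blood-brain barrier, and dividing cells need both lipids for new membrane.

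The promoters of 4 of these genes are shown with the motifs marked through which this regulation is usually described. These are a sterol regulatory element core, searched as TCACNCCA, and a CCAAT box, searched as CCAAT, each on both strands. All 4 windows hold a CCAAT box, and only those of Hmgcs1 and Srebf2 hold the core. The sequences are RefSeq promoter windows (build GRCm38.p6) in the 250 bases before the annotated start, cut short where an earlier transcript of the GENCODE M21 annotation begins, and printed 5′ to 3′ on the gene's strand, with matches to either motif in capitals. The window of Hmgcs1, which makes the HMG-CoA of the mevalonate arm, lies at chr13:119690101-119690350 on the plus strand. That of Srebf2, the main regulator of the sterol branch, lies at chr15:82147019-82147180 on the plus strand. That of Mvd, which decarboxylates mevalonate pyrophosphate, lies at chr8:122443423-122443672 on the minus strand, and that of Elovl1, an elongase of very long saturated chains, at chr4:118427843-118428092 on the plus strand.
Hmgcs1: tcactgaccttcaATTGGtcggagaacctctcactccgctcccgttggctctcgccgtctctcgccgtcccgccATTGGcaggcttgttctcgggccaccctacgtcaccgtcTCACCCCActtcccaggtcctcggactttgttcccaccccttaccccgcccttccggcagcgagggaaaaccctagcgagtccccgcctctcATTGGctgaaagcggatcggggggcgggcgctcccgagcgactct
Srebf2: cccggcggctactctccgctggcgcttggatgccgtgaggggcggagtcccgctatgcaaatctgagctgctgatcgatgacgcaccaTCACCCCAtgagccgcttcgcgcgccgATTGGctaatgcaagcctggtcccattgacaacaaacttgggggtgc
Mvd: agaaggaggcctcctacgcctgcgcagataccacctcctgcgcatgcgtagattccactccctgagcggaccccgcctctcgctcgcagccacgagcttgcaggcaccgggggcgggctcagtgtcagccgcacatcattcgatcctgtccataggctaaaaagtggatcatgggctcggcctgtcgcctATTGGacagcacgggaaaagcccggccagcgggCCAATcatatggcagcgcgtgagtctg
Elovl1: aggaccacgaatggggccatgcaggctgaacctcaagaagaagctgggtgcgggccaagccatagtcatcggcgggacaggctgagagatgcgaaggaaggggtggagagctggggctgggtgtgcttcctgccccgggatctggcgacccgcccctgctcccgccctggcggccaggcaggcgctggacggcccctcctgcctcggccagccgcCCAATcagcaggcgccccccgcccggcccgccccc
Hmgcs1 held 1 sterol element core, at base 114 from the 5′ end of the window, and 3 CCAAT boxes. Srebf2 held 1 of each, with the core at base 89. Mvd held 2 CCAAT boxes and Elovl1 held 1, with no core in either window. No core shared a base with a CCAAT box in these 4 windows.

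A promoter window was found for 29 of the 36 genes. Fdps, Fdft1, Sqle, Stard4, Scd1, Scd2 and Fads1 had none and were not analysed here. The CCAAT box stood in 23 of the 29, against 37.49% of the 27025 genes with a window. The GC box, searched as GGGCGG, stood in 23 of 29 against 35.36%. The sterol element core stood in 3 of 29 (Hmgcs1, Msmo1 and Srebf2) against 4.2%, and the E-box, searched as CACGTG, in 6 of 29 against 6.86%. Genes with several annotated starts were counted once if any window held the motif. These shares describe letters in a short window and show neither binding nor its absence.

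Counts per library summed to between 9917697 and 11747408 in the cultures and to 16676618 and 17351636 in whole DG. Per the labels' protocols the culture libraries were made with the SMART-Seq HT kit and the whole DG libraries with the NEBNext Ultra II Directional kit, so kit and group coincide and cannot be told apart. The labels give an RNA integrity number of 10 for the cultures and over 8 for whole DG, and its part in the differences was not tested. The cultures expressed the stem and progenitor markers Nes, Vim and Fabp7 above whole DG, while Sox2 was lower (log2 -2.57). Markers of other cell types moved with the comparison. All 5 neuronal, all 6 oligodendrocyte, all 4 microglial and all 3 endothelial markers were lower in the cultures, and of 6 astrocyte markers 3 were lower and 1 higher. Summed over each list, neuronal markers were at 33.6 to 39.3 CPM (the counts of a gene scaled to a common library size) in the cultures and 8063 and 8553 in whole DG. Oligodendrocyte markers were at 0.607 to 3.82 against 1162 and 1443 CPM, microglial markers at 0.955 to 2.93 against 128 and 134 CPM, endothelial markers at 0.607 to 2.98 against 61.9 and 65.6 CPM, and astrocyte markers at 481 to 1389 against 3174 and 3692 CPM. The microglial C1qa and the endothelial Cldn5 had 0 counts in all 4 cultures. The part that these other cells have in the whole DG values was not tested, and in bulk samples fewer cells of a type and less RNA per cell cannot be told apart.

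The first comparison asks how transcript levels in cultured NSPCs differ from those of the tissue they came from. Of the 36 genes, 33 were higher in the cultures and 1 was lower (edgeR's quasi-likelihood test, Benjamini-Hochberg adjusted over all 18088 genes, threshold 0.05). Among all genes tested, 77.3% were called, 35.6% as higher and 41.7% as lower. The median log2 difference was 1.83 for the 36 genes and -0.13 for all genes. In 33 of the 36 every culture lay above both whole DG libraries, as in 38.6% of all genes, and in 1 every culture lay below them, as in 45% of all genes. Tested against a fold of 2 rather than 0 difference, 26 of the 36 passed as higher, as did 20.3% of all genes. Summed over the 36 genes, CPM were 13561, 11092, 11720 and 12056 in cultures F1, F2, M1 and M2, and 4025 and 3709 in whole DG F1 and M2. The sum was 3.13 times as high in the cultures, and the groups did not overlap.

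**Figure D1:**
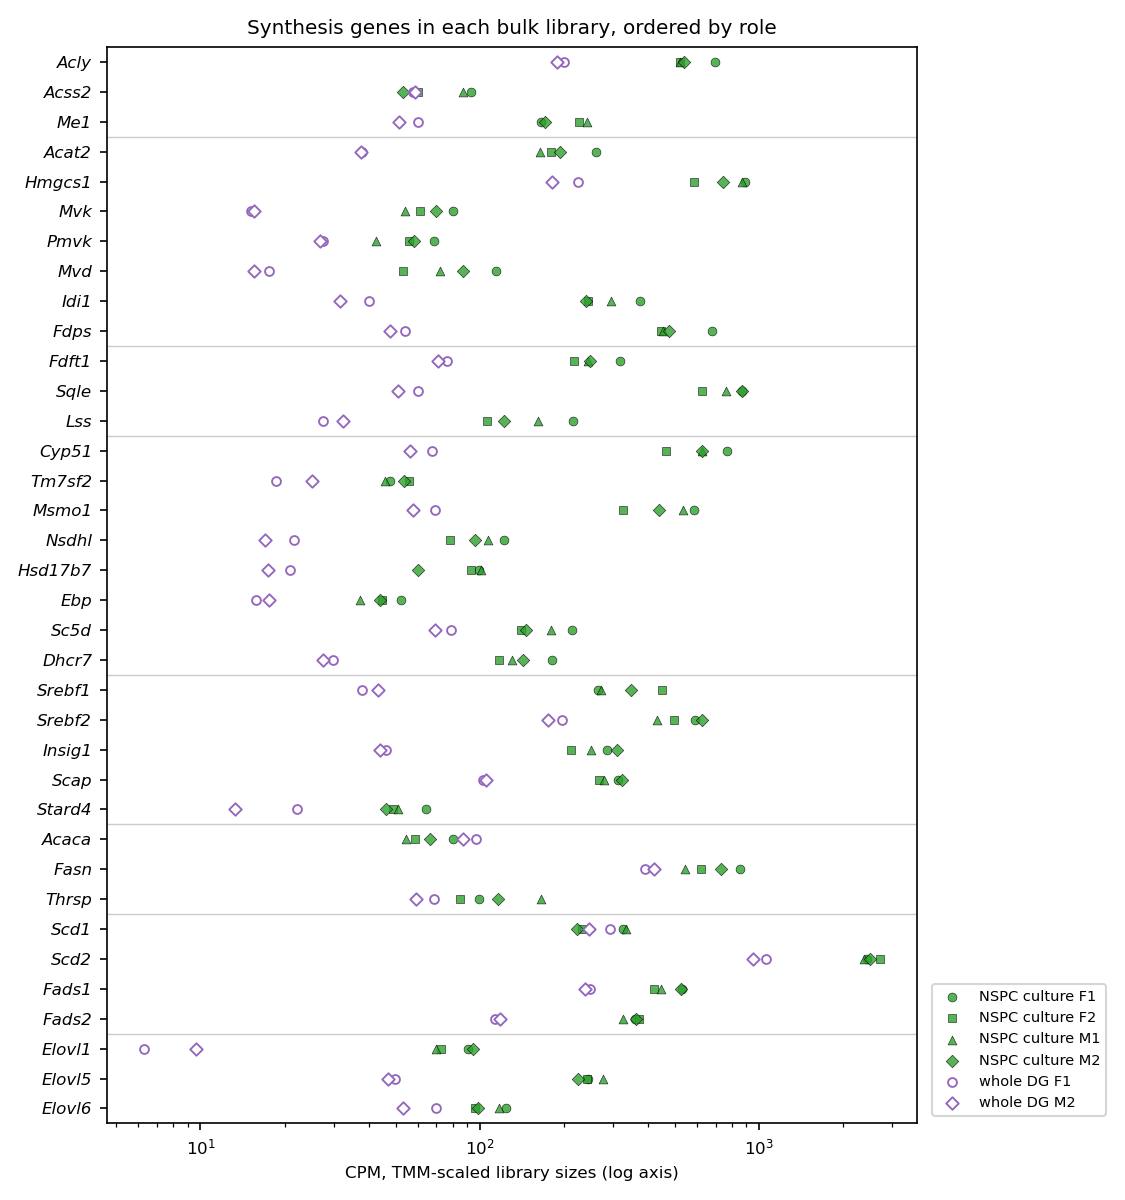
CPM (log axis, TMM-scaled library sizes) of the 36 genes in each of the 4 NSPC cultures (filled symbols) and the 2 whole DG libraries (open symbols), with lines between the 8 roles from acetyl-CoA supply at the top to elongases at the bottom. Filled and open symbols interleave for Acss2 and Scd1, and only for Acaca do all filled symbols lie to the left.

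The sterol branch was higher as a whole: all 18 enzymes on the route to cholesterol passed as higher, with log2 differences from 1.05 to 3.81 and a median of 2.31. Their summed CPM were 5946, 3898, 4875 and 4712 in cultures F1, F2, M1 and M2 against 904 and 799 in whole DG, 5.71 times as high. The 10 genes of fatty acid chain synthesis, desaturation and elongation were less uniform, with 8 higher, 1 lower, 1 not passing and a median of 0.92. Their sums were 5144, 4907, 4710 and 4934 CPM against 2397 and 2229 CPM, 2.13 times as high. The difference between the branches was not tested.

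In the mevalonate arm all 7 genes were higher. Fdps, which joins isoprenoid units into farnesyl pyrophosphate (chromosome 3, 89093588 to 89101959, minus strand, GRCm38), had the largest difference of the arm. It was at 680, 445, 454 and 476 CPM in cultures F1, F2, M1 and M2 and at 54.1 and 47.6 CPM in whole DG F1 and M2. All cultures lay far above both tissue libraries, and the log2 difference was 3.34 (SE 0.23, adjusted p = 4.47e-06). Pmvk, which phosphorylates mevalonate phosphate (chromosome 3, 89454541 to 89469013, plus strand), had the smallest difference. It was at 68.3, 55.8, 42.5 and 58.3 CPM in the cultures and 27.4 and 26.9 CPM in whole DG (log2 1.05, SE 0.20, adjusted p = 0.00146). The groups were apart for Pmvk too, although it did not pass the test for a fold above 2 (adjusted p = 0.295). Between them lay Idi1, the isopentenyl pyrophosphate isomerase (3.01), Acat2, the cytosolic thiolase (2.40), Mvd (2.30), Mvk, mevalonate kinase (2.10), and Hmgcs1 (1.93).

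From squalene to lanosterol all 3 genes were higher. Sqle, the epoxidase that adds oxygen to squalene (chromosome 15, 59315077 to 59331192, plus strand), was at 867, 626, 760 and 866 CPM in cultures F1, F2, M1 and M2. In whole DG it was at 60.2 and 51.1 CPM. All cultures again lay far above both tissue libraries, and the log2 difference of 3.81 (SE 0.20, adjusted p = 1.12e-06) was the largest of the 36. With length and GC trends removed, Srebf1 had a larger one (3.91) than Sqle (3.73). Lss, which closes the sterol rings, differed by 2.34. Fdft1, squalene synthase (chromosome 14, 63145150 to 63179578, minus strand), was at 319, 218, 244 and 248 CPM against 76.4 and 70.7 CPM (log2 1.81, SE 0.18, adjusted p = 3.42e-05), the smallest difference of the 3 with no overlap between groups.

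From lanosterol to cholesterol all 8 genes were higher. Cyp51, the lanosterol demethylase (chromosome 5, 4081145 to 4104746, minus strand), was at 770, 466, 624 and 626 CPM in the cultures and 67.5 and 56.2 CPM in whole DG (log2 3.33, SE 0.24, adjusted p = 5.04e-06). Msmo1, the methylsterol oxidase of the next steps, followed at 2.89, then the dehydrogenase Nsdhl (2.38), Dhcr7, which saturates a ring bond (2.32), Hsd17b7, the sterol ketoreductase (2.20), Ebp, the ring isomerase (1.41), and Tm7sf2, a sterol reductase (1.22). Sc5d, the desaturase near the end of the route (chromosome 9, 42251595 to 42264256, minus strand), had the smallest difference. It was at 214, 141, 180 and 147 CPM against 79.2 and 69.3 CPM (log2 1.2, SE 0.20, adjusted p = 0.000644). Cultures and tissue did not overlap for any of the 8. Tm7sf2 and Sc5d did not pass the test for a fold above 2 (adjusted p = 0.0729 and 0.101).

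All 5 regulators and carriers were higher. Srebf1, which drives mainly the fatty acid branch (chromosome 11, 60199089 to 60222581, minus strand), was at 264, 450, 272 and 347 CPM in cultures F1, F2, M1 and M2 and at 37.8 and 43.1 CPM in whole DG. Its log2 difference was 3.04 (SE 0.26, adjusted p = 1.50e-05), and culture F2 was the highest. Srebf2 rose by 1.52 (SE 0.18), from 197 and 176 CPM to between 431 and 623 CPM. Per exon length, Srebf1 stood at 0.571, 1.15, 0.805 and 0.71 of Srebf2 in cultures F1, F2, M1 and M2 and at 0.244 and 0.311 in whole DG. Every culture thus held more Srebf1 relative to Srebf2 than either tissue library. Insig1, which retains the Scap complex and is itself a target of it, differed by 2.55, and Stard4, a cytosolic sterol carrier, by 1.57. Scap (chromosome 9, 110333288 to 110384950, plus strand) was at 312, 267, 279 and 322 CPM against 103 and 105 CPM (log2 1.5, SE 0.14, adjusted p = 1.90e-05). With trends on gene length and GC content removed, the differences of Srebf2 and Scap became 2.42 and 2.64.

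Of the 3 genes that supply acetyl-CoA and NADPH, 2 were higher. Me1, the cytosolic malic enzyme that yields NADPH (chromosome 9, 86581371 to 86695953, minus strand), was at 165, 227, 242 and 171 CPM against 60.3 and 51.3 CPM (log2 1.85, SE 0.21, adjusted p = 6.57e-05). Acly, which cleaves citrate into acetyl-CoA, was at 697, 523, 523 and 537 CPM against 201 and 189 CPM (log2 1.55, SE 0.17, adjusted p = 5.17e-05). Acss2, which makes acetyl-CoA from acetate (chromosome 2, 155517948 to 155585724, plus strand), was at 92.9, 60.3, 87.4 and 53.2 CPM in the cultures and 57.8 and 58.5 CPM in whole DG. Cultures F1, F2 and M1 were above both tissue libraries, F2 by a narrow margin, and M2 was below them, and the difference of 0.34 (SE 0.24) did not pass (adjusted p = 0.227, range 0.0391 to 0.599 over the alternatives). It passed with length and GC trends removed, at 0.58. Per exon length, Acly stood at between 11.5 and 19.5 times Acss2 in the cultures and at 6.68 and 6.22 times in whole DG.

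The 3 chain synthesis genes had the smallest median difference of the 8 roles, 0.77. Acaca, the acetyl-CoA carboxylase of the cytosol (chromosome 11, 84129672 to 84401651, plus strand), was the only gene of the 36 called lower. It was at 80.3, 58.4, 54.4 and 66.2 CPM in cultures F1, F2, M1 and M2 and at 97.0 and 87.3 CPM in whole DG. All cultures were below both tissue libraries, by 0.51 on the log2 scale (SE 0.17, adjusted p = 0.0255), but the call was lost without either whole DG library (adjusted p = 0.155 without F1 and 0.0654 without M2). With length and GC trends removed, the sign turned (0.22, adjusted p = 0.273). Fasn, fatty acid synthase (chromosome 11, 120805846 to 120824547, minus strand), was at 856, 622, 542 and 730 CPM against 389 and 419 CPM (log2 0.77, SE 0.19, adjusted p = 0.00661). Its call was lost without whole DG F1 (adjusted p = 0.0567), and with length and GC trends removed the difference was 1.98. Thrsp, a nuclear protein linked to lipogenic transcription (chromosome 7, 97412938 to 97417730, minus strand), was at 99.2, 84.8, 166 and 116 CPM against 68.4 and 59 CPM (log2 0.87, SE 0.26, adjusted p = 0.0153). The groups did not overlap, yet the call was lost without whole DG F1 (adjusted p = 0.0538) and without M2 (adjusted p = 0.109).

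Of the desaturases 3 were higher and Scd1 did not pass. Scd1 (chromosome 19, 44394455 to 44407879, minus strand) was at 327, 233, 333 and 223 CPM in the cultures and 293 and 246 CPM in whole DG. Cultures F1 and M1 were above both tissue libraries, F2 and M2 below both, and the difference was 0.05 (SE 0.20, adjusted p = 0.83, range 0.324 to 0.928 over the alternatives). The neighbouring Scd2 (chromosome 19, 44293674 to 44306864, plus strand), a stearoyl-CoA desaturase abundant in brain, was at 2431, 2706, 2381 and 2492 CPM against 1062 and 951 CPM, and its groups were apart (log2 1.31, SE 0.13, adjusted p = 3.46e-05). Per exon length, Scd1 was at 0.15, 0.0964, 0.156 and 0.1 of Scd2 in cultures F1, F2, M1 and M2 and at 0.309 and 0.289 in whole DG, so every culture had the lower share. A transcript of Scd1 matched Scd2 at 95.6% identity over 620 bases, and the part of this likeness in the ratio was not tested. Fads2, which starts the desaturation of polyunsaturated chains (chromosome 19, 10062765 to 10101746, minus strand), was at 361, 372, 325 and 364 CPM against 113 and 118 CPM (log2 1.62, SE 0.13, adjusted p = 8.14e-06). Its partner Fads1 differed by 0.98.

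All 3 elongases were higher. Elovl1 (chromosome 4, 118428093 to 118432953, plus strand) was at 90.7, 72.7, 69.5 and 94.3 CPM in the cultures and 6.26 and 9.61 CPM in whole DG (log2 3.36, SE 0.25, adjusted p = 6.16e-06), next to Sqle the largest difference of the 36. Of its exons, 53 bases (1.94%) lie in exons of Cdc20, a mitosis gene on the other strand that was at 80.9 to 270 CPM in the cultures and under 1 CPM in whole DG. Elovl5, an elongase of polyunsaturated chains, differed by 2.35. Elovl6, which lengthens palmitate (chromosome 3, 129532355 to 129638495, plus strand), was at 124, 96.5, 117 and 98.7 CPM against 69.8 and 53.3 CPM (log2 0.82, SE 0.17, adjusted p = 0.00245). No culture overlapped the tissue for any of the 3, although Elovl6 did not pass the test for a fold above 2 (adjusted p = 0.816).

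**Figure D2:**
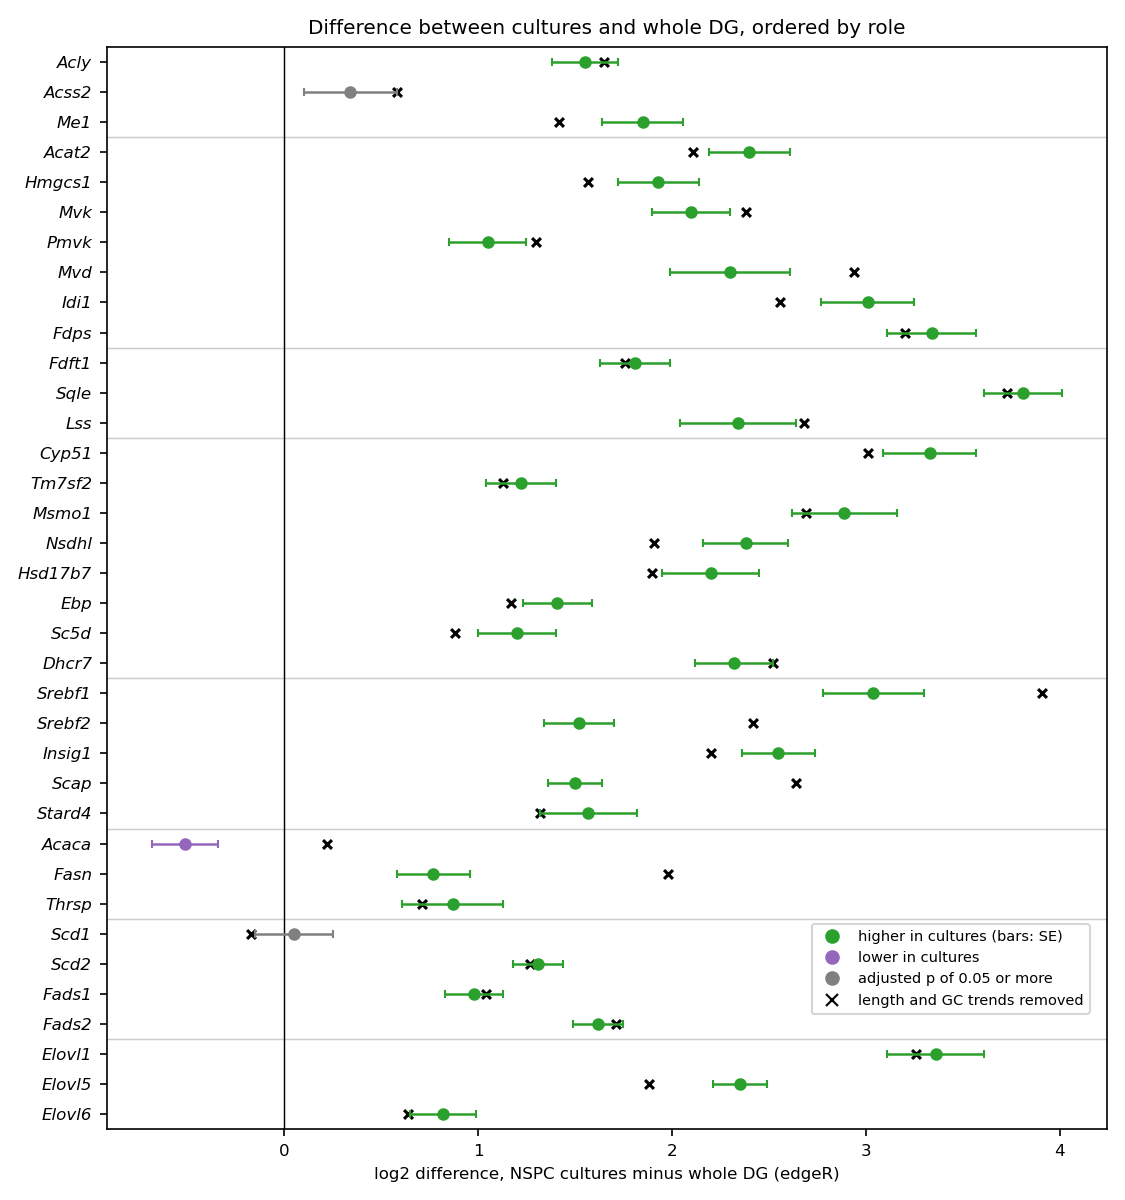
Log2 difference, NSPC cultures minus whole DG, of the 36 genes by edgeR (points, bars are 1 SE), coloured by the call at an adjusted p of 0.05, with crosses for the same value after trends on gene length and GC content were removed. Sqle is the point farthest right at 3.81, and the cross of Srebf1 lies farther right at 3.91. Acaca is the only point called lower, and the crosses of Fasn, Scap and Srebf2 lie well to the right of their points.

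Some of the 36 genes share sequence or exon bases with other genes, so reads could be counted for either. How the authors treated such reads is not stated in the sources used here. Near-identical stretches (at least 90% identity over at least 200 bases) in another gene were found for 10 of the 36. Some of these are overlaps at the same place and not copies elsewhere. The only match of Hmgcs1, Gm48342, overlaps it on the other strand, as Ctsb does with Fdft1 and Gm48574 with Idi1. The pseudogene Gm3571, 98.9% identical to Fdps over 1062 bases, had 707, 400, 405 and 446 counts in the cultures and 66 and 49 in whole DG, and so rose by a log2 difference of 3.60, like Fdps itself. Gm13502, identical to Idi1 over 684 bases, rose by 2.54, and Acat3, 97.7% identical to Acat2, rose by 1.62. Fdps also shares 26.7% of its exon bases with Gm43738 on the same strand, and Fdft1 shares 18.3% with Ctsb on the other strand. Gm43738 was at 669, 440, 448 and 471 CPM in cultures F1, F2, M1 and M2, close to Fdps in each. In whole DG F1 and M2 it was at 105 and 100 CPM, above Fdps. Acaca has a copy, Gm5182, of 6118 bases at 99.2% identity, which was not analysed here. How far these copies and overlaps move the values was not tested.

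Ranked per exon length within the cultures, Scd2 stood highest at 458 ± 26.2 RPKM (SD, n = 4; CPM divided by exon length in kilobases), followed by Hmgcs1 at 168 ± 30.7 RPKM. Sqle at 141 ± 20.6 and Cyp51 at 141 ± 28.2 RPKM did not differ beyond their spread, and Fdps stood next at 122 ± 26.5 RPKM. Acaca was lowest at 3.8 ± 0.67 RPKM, its length counting all 17074 annotated exon bases. In whole DG, Scd2 also stood highest at 184 ± 14.3 RPKM (SD, n = 2), but Scd1 came next at 55.1 ± 6.91 and then Fads1 at 50.6 ± 1.27 RPKM. Scd1 had rank 18 of 36 in the cultures and rank 2 in whole DG, and Sqle had rank 3 in the cultures (level with Cyp51) and rank 22 in whole DG. Over the 36 genes (genes are no independent replicates) the mean RPKM of the 2 groups had a Spearman rho of 0.708.

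The order of the 4 cultures was not alike in both branches. Culture F1 had the highest CPM for 16 of the 18 sterol enzymes, and culture F2 the lowest for 11. For Lss, F1 was at 215 and F2 at 106 CPM. For the 10 fatty acid genes F1 was the highest for 4 and F2 for 2. The order of the cultures was not counted over all genes, so these counts do not set either branch apart. The coefficient of variation over the 4 cultures ranged from 5.72% for Scd2 to 31.9% for Lss. F1 and F2 are both female, and the passage of each culture is given only as a range, so a difference of passage between these libraries was not tested.

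Genes around the pathway did not all move with it. Of all genes tested, 35.6% were called higher and 41.7% lower, and the counts of these lists are to be read against those shares. Of 13 other genes of sterol and isoprenoid synthesis and its control, 8 were higher and 5 lower, with a median of 0.86. The most abundant were Mbtps1, the protease that makes the earlier cut in SREBP, at 231 CPM on average in the cultures against 106 (log2 1.13), and Erlin2, an endoplasmic reticulum protein that acts in sterol-linked degradation, at 165 against 63.7 CPM (1.37). Lbr, a nuclear envelope protein with sterol reductase activity, had the largest rise, from 14.2 and 13.3 CPM in whole DG to 169, 197, 90 and 130 CPM (log2 3.41, SE 0.34, adjusted p = 3.26e-05). Nr1h3, the oxysterol receptor LXR-alpha, had the largest fall, from 3.29 and 4.38 CPM to between 0 and 0.579 CPM (log2 -3.69, adjusted p = 0.00145).

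Of 10 genes for storage, transport and removal of sterols, 3 were higher, 5 lower and 2 did not pass, with a median of -1.43. That split was near the shares over all genes tested, 35.6% higher and 41.7% lower. Npc2, a lysosomal sterol carrier, was at 156, 130, 156 and 207 CPM against 47.2 and 44.2 CPM (log2 1.83), and Soat1, which esterifies cholesterol for storage, at 85.9 against 24.4 CPM on average (log2 1.81). The sterol exporter Abcg1 had the largest fall, from 73.4 and 76.4 CPM to 0.413, 1.3, 2.39 and 0.683 CPM (log2 -5.97, SE 0.43, adjusted p = 5.07e-06). The groups of Abcg1 were far apart, with its highest culture under 3 CPM.

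Of 20 other genes of fatty acid elongation, activation and supply, 11 were higher, 6 lower and 3 did not pass, with a median of 0.49. Tecr and Hsd17b12, which catalyse steps of each elongation cycle, were the most abundant and were both higher, by 0.90 and 2.75, and Hacd1, a dehydratase of the same cycle, had the largest rise (3.52). Acacb, the mitochondrial counterpart of Acaca, had the largest fall, from 13 and 11.2 CPM to between 0 and 0.694 CPM (log2 -5.03, SE 0.58, adjusted p = 8.06e-05). Of 14 fatty acid oxidation genes, 11 were higher, 1 lower and 2 did not pass, with a median of 1.43. Hadh, a mitochondrial dehydrogenase of the oxidation spiral, rose most, by 2.71, and the 2 most abundant, Acadl, a long-chain dehydrogenase, and Hadhb, a subunit of the trifunctional protein, by 2.70 and 1.62. The lower gene was Pdk4, a kinase that spares glucose when fat is burned (-3.15). Genes that make and genes that burn fatty acids were thus both higher on the median in the cultures.

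The second comparison asks whether female and male cultures differ. None of the 36 genes passed in the 4 cultures by edgeR, while 0.0264% of 15140 genes tested (4 genes) did. At an unadjusted p under 0.05 there was 1 of 36 by edgeR, against 6.22% of all genes. DESeq2 also called 0 of 36, with 1 at an unadjusted p under 0.05. That gene by edgeR was Thrsp, at 99.2 and 84.8 CPM in the female cultures and 166 and 116 CPM in the male ones (log2 male minus female 0.62, edgeR adjusted p = 0.752). Both male cultures were above both female ones, and the gene did not pass the correction. With simulated counts of this design, edgeR found 15% of 2-fold and 63% of 4-fold changes among 15140 genes, so changes of up to 4-fold could be missed.

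The third comparison follows the genes across the 6 clusters, numbered 0 to 5, that the authors assigned to 14912 cells of the mixed library with 62412600 unique molecular identifiers (UMIs, each a counted transcript). The clusters were made from the same cells and genes and come from 1 library, so the levels are a description with no test. Intervals are exact 95% Poisson intervals and cover counting error only. No cell barcode occurred more than once. Median depth per cell ranged from 3431 UMIs in cluster 1 to 5271 in cluster 4. Levels are given as UMI CPM, the UMIs of a gene scaled to the total UMIs of the cluster in the same way as CPM. Genes of the cell cycle and of amino acid stress moved with the clusters. A list of 6 G2 and mitosis genes was at 4495 UMI CPM in cluster 4, at 1143 in cluster 1 and at 184 in cluster 0, and a list of 6 S phase genes was highest in clusters 2 (827) and 3 (673). A list of 6 amino acid stress genes was highest in cluster 5 (759.5 against 477.5 in all cells). The part of these states in the values that follow was not tested.

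The 18 sterol enzymes together held 3121 UMI CPM (3107 to 3135) over all cells. They were highest in cluster 3, at 3601 (3560 to 3643), and lowest in cluster 4, at 2616 (2579 to 2653), which gives a ratio of 1.38 (1.35 to 1.40). Cluster 0 stood at 3344, cluster 5 at 3234, cluster 2 at 3133 and cluster 1 at 2761, and no pair of the 6 intervals overlapped. Each of the 18 enzymes was higher in cluster 3 than in cluster 4. For 14 of 18 the highest level was in cluster 3, for 11 the lowest was in cluster 4, and for 12 the lowest pair of clusters was 1 and 4. These counts were not made over all genes.

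**Figure D3:**
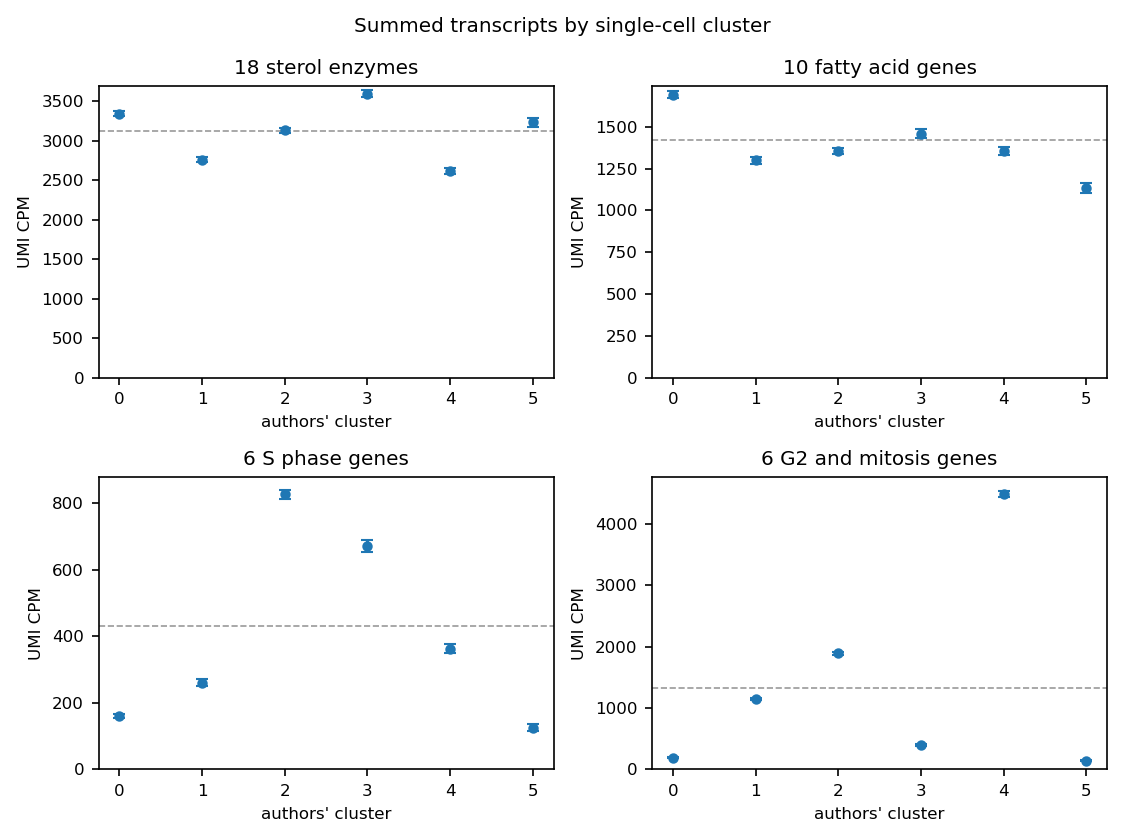
UMI CPM in each of the authors' 6 clusters, summed over the 18 sterol enzymes, the 10 fatty acid genes, 6 S phase genes and 6 G2 and mitosis genes, with exact 95% Poisson intervals (bars) and the level over all cells (dashed line). The sterol sum is highest in cluster 3 at 3601 and lowest in cluster 4 at 2616, the fatty acid sum is lowest in cluster 5 at 1133, and the mitosis sum is highest in cluster 4 at 4495.

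Single enzymes differed in their spans, and not all followed the order of the sum. Acat2, Pmvk, Tm7sf2 and Ebp were lowest in cluster 5, and Fdft1, Nsdhl and Hsd17b7 in cluster 1. Mvd had the widest span of the 18, from 55.8 UMI CPM (50.5 to 61.4) in cluster 4 to 111 (103 to 118) in cluster 3, a ratio of 1.98. Cyp51 ran from 241 (230 to 252) in cluster 4 to 356 (344 to 370) in cluster 3, and Fdps from 399 (385 to 413) to 563 (547 to 579) in the same clusters. Sqle, with the largest bulk difference, spanned a ratio of only 1.26, from 229 (218 to 240) in cluster 4 to 289 (277 to 301) in cluster 3. Ebp was the only gene of the 36 whose highest and lowest intervals overlapped, at 64.8 (60.8 to 68.9) in cluster 2 and 57.1 (50.4 to 64.5) in cluster 5. The share of all genes without such overlap was not computed, so this count does not set the 36 apart. Hsd17b7 and Msmo1 were highest in cluster 5, at 62.6 (55.5 to 70.3) and 441 UMI CPM.

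Against the other cells, with a fold of 1.2 as the bound and 6150 genes of at least 1000 UMIs as the background, 11 of the 36 genes were higher in cluster 3, where 5.98% of all genes were. In cluster 0, 10 of 36 were higher, against 12.7% of all genes. No gene of the 36 was lower by that fold in either cluster, where 7.84% (cluster 3) and 22.3% (cluster 0) of all genes were. In cluster 1, 11 of 36 were lower against 10.9% of all genes and 0 were higher against 7.77%. In cluster 4, 15 of 36 were lower against 8.39% and 1 was higher against 15.4%. In cluster 5, 12 were lower against 32.9% and 4 higher against 8.75%, so the count of lower genes there was near the background. In cluster 2, 1 was higher against 16% and 2 were lower against 9.04%. The median log2 ratio of the 18 sterol enzymes to the other cells was 0.265 in cluster 3, -0.319 in cluster 4 and -0.234 in cluster 1, where the median of all genes lay between -0.003 and 0.025.

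The fatty acid genes had another order. Their sum was 1692 UMI CPM (1671 to 1713) in cluster 0 and 1133 (1102 to 1164) in cluster 5, a ratio of 1.49 (1.45 to 1.54), with 1423 over all cells. The summed astrocyte markers, 5 in this table, had the same highest and lowest clusters, at 387.7 UMI CPM (377.9 to 397.8) in cluster 0 and 208.3 (195.3 to 222.0) in cluster 5, with 293.1 over all cells, and their part in the result was not tested. For 7 of the 10 the lowest level was in cluster 5, a count not made over all genes. By the fold of 1.2, 7 of the 10 were lower there than in the other cells, against 32.9% of all genes. The median log2 ratio of the 10 to the other cells there was -0.387, with -0.127 for all genes. Thrsp had the widest span of the 36, from 142 UMI CPM (136 to 148) in cluster 2 to 362 (352 to 372) in cluster 0, a ratio of 2.55. Without Thrsp the sum of the other 9 genes, which still held the abundant Scd2, was 1.44 times as high in cluster 0 as in cluster 5 (1.39 to 1.49). Only 4 of the 10 genes were highest in cluster 0. Against the other cells, 6 of the 10 were higher there. Acaca, Fads1, Fads2 and Elovl5 were lower there (log2 ratio -0.092, -0.162, -0.123 and -0.162). The median of the 10 in cluster 0 was 0.078, with -0.028 for all genes. Scd2 stood at 775 (761 to 789) in cluster 0 and 507 (486 to 528) in cluster 5. Elovl5 was highest in cluster 4, where the sterol enzymes were lowest. It was at 51.7 (46.7 to 57.2) there and at 29.5 (24.8 to 35.0) in cluster 5.

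Outside the 2 branches, Acss2 had a wide span at a low level, from 11.6 UMI CPM (9.26 to 14.3) in cluster 4 and 12.6 (10.7 to 14.8) in cluster 1 to 29.2 (25.6 to 33.2) in cluster 3, a ratio of 2.52. Of the regulators, Srebf1 was highest in cluster 0 (60.9) and lowest in cluster 1 (42.5), and Insig1 was highest in cluster 3 (118) and lowest in cluster 4 (93.7). Srebf2 spanned a ratio of only 1.21, from 80.7 (72.7 to 89.4) in cluster 5 to 97.8 (90.8 to 105) in cluster 4, and the interval of cluster 4 overlapped those of clusters 0 to 3. Over the 36 genes, mean RPKM of the bulk cultures and UMI CPM of the mixed library had a Spearman rho of 0.652, a description across genes that share both sets of libraries.

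**Figure D4:**
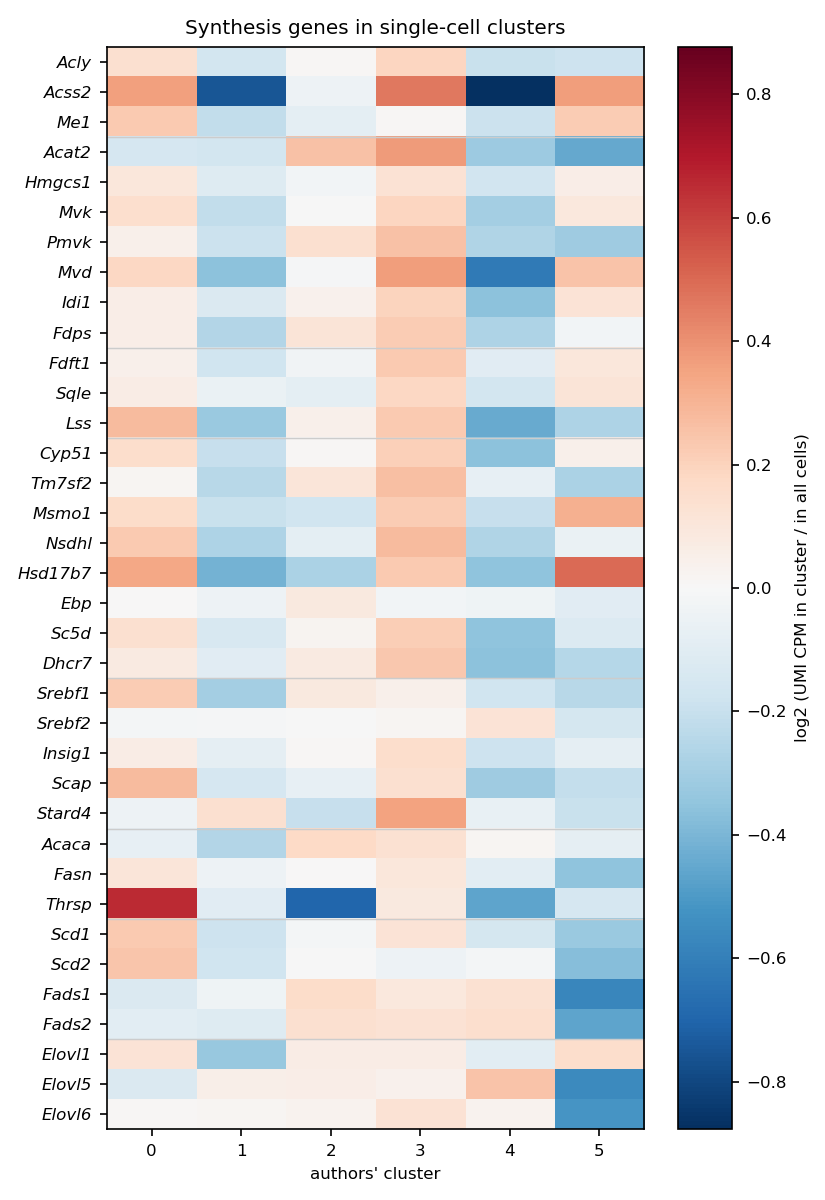
Log2 ratio of the UMI CPM of each of the 36 genes in each of the authors' clusters to its level over all cells, in red where higher and blue where lower, with lines between the 8 roles. Sterol enzymes are mostly red in clusters 0 and 3 and blue in clusters 1 and 4, Thrsp is reddest in cluster 0, and most fatty acid genes are blue in cluster 5.

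Within clusters, cells thinned to 2000 UMIs each held on average 5.28 (cluster 4) to 7.19 (cluster 3) UMIs of the 18 sterol enzymes. The variance of that sum over cells was 1.78 to 2.74 times its mean, highest in cluster 5, where a pure counting spread would give a ratio near 1. The same ratio was 1.15 to 1.35 for the 10 fatty acid genes and 0.952 to 1.08 for the 14 fatty acid oxidation genes, whose mean sums were lower (2.26 to 3.39 and 1.35 to 1.68 UMIs). It was 1.67 to 2.27 for 4 stem and progenitor markers, at means of 13.2 to 15.7 UMIs, and 1.13 to 2.01 for the 6 G2 and mitosis genes. Whether the 3 mixed cultures, which carry no label in these cells, account for part of that spread was not tested.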

How the data were processed

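Polyadenylated RNA was measured in 4 NSPC cultures and 2 whole DG samples by bulk sequencing and in 1 single-cell library. The authors deposited the bulk data as whole, unscaled counts per gene. The submitters' processing notes list HISAT2 2.0.6, featureCounts, Subread and CASAVA 1.8.2, without their roles, and the build GRCh38, although the symbols are mouse symbols. How strand and shared reads were counted is not stated in the sources used here. In the single-cell file the authors deposited the natural log of 1 plus UMIs per 10000 of each cell. Cell Ranger 3.1.0 and Seurat 3.1.0 stand in the submitters' processing notes. The cell filter is not stated, and the values run from 2001 UMIs upward and to at most 2499 genes per cell. No doublets were removed here, and whether the authors removed any is not stated in the sources used here.

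Cultures and whole DG (6 libraries), and the sexes in the 4 cultures, were compared by the robust quasi-likelihood F test of edgeR 4.0.16 (R 4.3.3) with TMM factors, the default filter and Benjamini-Hochberg adjustment over all genes tested at 0.05. DESeq2 1.42.0 was an alternative. The SE of an edgeR difference is its absolute log2 value divided by the square root of the F statistic, as the test itself gives none. The labels call the cultures separate; p-values measure the spread between these samples. CPM use TMM sizes. Bulk reads carry no molecular identifiers and so are not independent. UMIs were recovered from the log values (100% within 0.01 of a whole number) and summed per cluster. Gene positions, lengths and overlaps come from GENCODE M21 on GRCm38, in which 47477 of 50600 entries (93.8%) matched a unique symbol. Copies were searched with minimap2 2.31. When counts of 18088 genes were simulated for cultures against whole DG, 33% of the genes changed 2-fold and 65% of those changed 4-fold were found, beside 8 false calls. Only 200 genes were changed in that simulation, while 77.3% of genes were called in the data. The simulated rates therefore do not give the share of true changes found in the data.

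The 36 genes and the surrounding lists were chosen with earlier results of these data known, and 2 genes of those lists are not reported here. Values by library are given for the genes with the largest and smallest difference in each role, those not passing and those lower. From each surrounding list the 2 most abundant tested genes and the largest difference each way are named. Scaling, tool, filter, library, block, length and GC, depth and fold bound were varied. Whether same-named libraries come from the same animal is not known, as the labels do not link them. Their deviations from the group means correlated at 0.0416 (F1) and 0.0543 (M2). With 2 whole DG libraries, of opposite sex, the tissue deviations mirror each other, so this check cannot decide on pairing.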

Additional observations from a re-analysis of the deposited data

Results flagged for a closer look

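In the 4 cultures, 2 of the 36 genes had a highest library set apart from the others by more than Dixon's 95% bound, both in culture F1. Acly was at 697 CPM there, with a gap to the next culture of 0.922 of the whole range, and Fdps was at 680 CPM, with a gap of 0.867 of the range. Chance alone sets off about 1 in 20 such groups, and 36 were examined. Without culture F1 both genes kept their direction and their call against whole DG.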

How the results depend on the processing

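Over 16 alternatives the number of the 36 genes called higher in cultures stayed within 1.5 times of 33. Leaving out 1 library in turn gave 31 to 33, removing length and GC trends 34, and the test against a fold of 2 gave 26. The count of genes called lower was 1 and became 0 under upper quartile scaling, after length and GC trends were removed, in the test against a fold of 2 and in the 4 libraries that share a name (F1, M2) without a block, and it ranged from 0 to 1 when 1 library was left out. With the replicate block in those 4 libraries, 33 genes were higher and 0 lower, and without the block they gave the same counts, so the block itself changed no call. No alternative turned a gene called higher, but Acaca turned to 0.22 with length and GC trends removed. Scd1, not called, turned to -0.05 with DESeq2 size factors and with DESeq2's test, -0.14 with the stricter filter, -0.17 with length and GC trends removed, and ranged from -0.07 to 0.18 when 1 library was left out, below 0 without culture F1 (-0.02), culture M1 (-0.04) or whole DG M2. The cause was not tested. The median shift of a gene was -0.102 with DESeq2 size factors, 0.179 with upper quartile scaling and, over the 14506 genes kept, -0.192 with the stricter filter. Of 576 gene values over all alternatives, 551 kept direction and side of the threshold. For the sexes, 0 of 36 genes were called under every alternative run, while the count over all genes moved from 4 to 53 with DESeq2's test, 273 with no filter, 81 without culture F1 and 13 without culture F2. In single cells, taking mitochondrial and ribosomal genes out of the total moved the sterol ratio of cluster 3 to cluster 4 from 1.38 to 1.42 and the fatty acid ratio of cluster 0 to cluster 5 from 1.49 to 1.45. With 2 whole DG libraries, calls near the threshold rest on either one.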
